A study of Mus musculus with 15 samples.

Results

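Matriptase (St14), prostasin (Prss8), 6 further serine proteases of epithelial and other cells (Prss22, Tmprss2, Tmprss4, Tmprss13, Hpn and Corin) and the Kunitz inhibitors HAI-1 (Spint1) and HAI-2 (Spint2) were followed across epidermis and tongue of newborn mice. The 10 genes were chosen by name and not by their values, and all 10 were found by symbol among the 23420 mouse genes of the count table. The study measured RNA by sequencing in 15 libraries at postnatal day 1 in mice whose Tmprss11 cluster, the HAT/DESC serine proteases, was either intact or targeted. The labels give the knockout as homozygous loss of Tmprss11a, b, c, d, e, f and g, and they put the same strain entry, the names of these genes, on wild-type and knockout mice alike. There were 3 libraries of wild-type (WT) epidermis, 4 of knockout (KO) epidermis, 4 of WT tongue and 4 of KO tongue. The A-number in the labels, read here as an animal's name, gives 9 animals in all, with both tissues taken from 6 of them. The epidermis was peeled from the dermis by hand after brief heating in EDTA, while the tongue was taken whole, with its muscle and connective tissue.

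Matriptase is a transmembrane serine protease of epithelial cells, and prostasin is tied to the membrane by a lipid anchor. Each can activate the other's zymogen, and the pair acts in barrier formation in skin and in other lining epithelia. Both are held in check by HAI-1 and HAI-2, transmembrane proteins that carry Kunitz inhibitor domains. Known targets of such proteases include the receptor PAR-2, subunits of the epithelial sodium channel, the precursors of hepatocyte growth factor and urokinase, and the adhesion protein EpCAM. The HAT/DESC proteases that were targeted are membrane-anchored serine proteases, as are most of the proteases described here.

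The libraries held 10117938 to 17819847 counted reads. Mitochondrial ribosomal RNA took 44.6% of the reads in epidermis WT 1, 20.1% to 23.8% in the 6 other epidermis libraries and 35.5% to 40.8% in tongue. Levels are given as counts-per-million values (CPM), with library sizes scaled by TMM over all 15 libraries. Of the 7 targeted genes 6 were analysed, and their summed level was 350.2 to 387.7 CPM in the WT tongue libraries and 135.6 to 150.9 CPM in the KO ones. In epidermis the sum was 237 to 310.1 CPM in WT and 109 to 250.7 CPM in KO, so the sums overlapped there. Most of that sum was Tmprss11f (mean 246.6 CPM in WT and 154 CPM in KO), which overlapped, as did Tmprss11a and Tmprss11g. Epidermal Tmprss11b did not overlap, at 3.54 to 3.695 CPM in WT and 0.332 to 1.15 CPM in KO. Nor did Tmprss11e (3.26 to 4.31 and 1.72 to 2.74 CPM) or Tmprss11d (0.9 to 1.18 and 0.5245 to 0.6165 CPM). Knockout is used below as the label gives it. Markers fitted the labelled tissues: the suprabasal keratinocyte genes Krt1, Krt10, Krt2, Krt77, Lor, Flg2 and Ivl summed to at least 29184 CPM in each epidermis library and at most 204 CPM in each tongue library. The 6 epithelial adhesion genes Cdh1, Dsp, Jup, Perp, Pkp3 and Trp63 summed to 4754 to 12851 CPM in epidermis and 1958 to 3054 CPM in tongue. Skeletal muscle genes summed to 89.3 to 710 CPM in epidermis and 28724 to 51286 CPM in tongue. The A-numbers fall in the ranges A32x, A34x and A38x (A-numbers that begin with A32, A34 or A38), which the labels do not explain and which may mark a litter or a day. Every group has 1 library from A32x and 2 from A38x, and every group but WT epidermis has 1 from A34x.

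The first question was in which tissue each gene was expressed, and at what level. In WT animals 7 of the 10 genes were higher in epidermis than in tongue, namely St14, Prss8, Prss22, Tmprss4, Tmprss13, Spint1 and Spint2. Corin alone of the 9 genes tested was lower in epidermis. Tmprss2 did not pass, and Hpn did not pass the filter on low counts. Passing means an adjusted p under 0.05 in edgeR's quasi-likelihood test with Benjamini-Hochberg adjustment over all genes tested. Both tissues differ in much of their RNA, and 63.6% of the 16577 genes tested passed, 32% as higher and 31.6% as lower in epidermis. The share of the members called higher, 7 of 9 tested, is to be read against that 32%. For these 7 genes no WT tongue library reached a WT epidermis library, which held for 31.8% of all genes tested. The same 7 genes were higher in KO epidermis than in KO tongue, in libraries that the WT comparison did not use, and there Corin and Tmprss2 were lower among 10 tested. In that comparison 63.8% of 16398 genes passed, 32.7% as higher and 31.1% as lower, and 28.6% had every epidermis library above every tongue library, as these 7 did. In whole tissue, fewer cells of a type and less RNA per cell cannot be told apart.

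**Figure D1:**
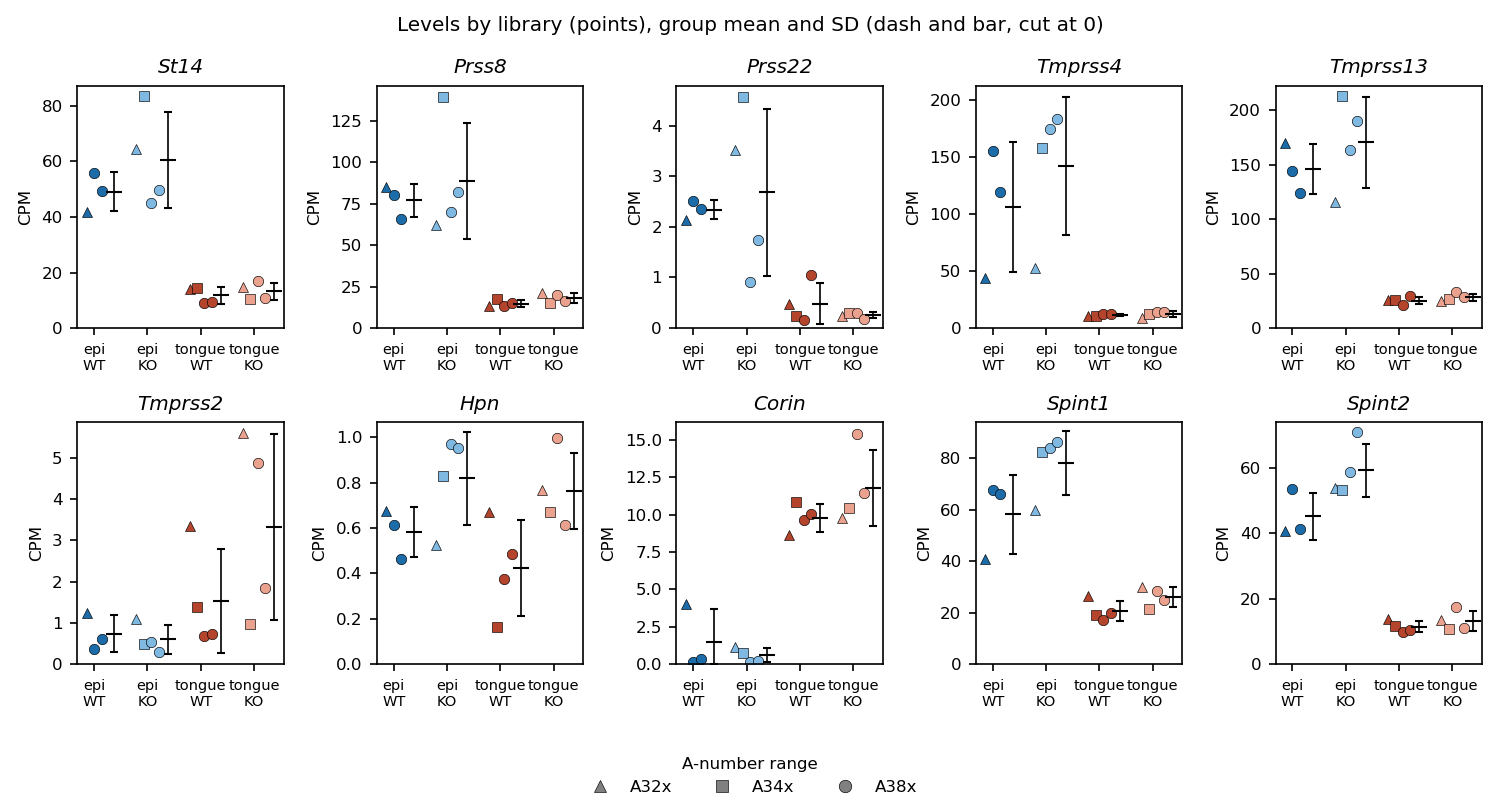
Levels (CPM, linear axes from 0) of the 10 genes in every library, with 1 panel per gene. Points are libraries, their shape gives the A-number range, and the dash and bar beside each group give its mean and SD. The epidermis points of St14, Prss8, Tmprss4, Tmprss13, Spint1 and Spint2 all lie above the tongue points, and those of Corin all lie below.

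St14 lies at chr9:31089402-31131853 on the minus strand (GRCm38, as are all coordinates here). Its levels were 42.0, 56.0 and 49.5 CPM in WT epidermis 1 to 3 and 64.4, 83.5, 44.9 and 49.6 CPM in KO epidermis 1 to 4. In WT tongue it stood at 13.98, 14.5, 9.11 and 9.29 CPM, and in KO tongue at 14.8, 10.3, 16.8 and 10.7 CPM. Every epidermis library was above every tongue library, and the KO and WT ranges overlapped within each tissue. The epidermal level was 4.27-fold the tongue level in WT (95% interval 3.09 to 5.89, adjusted p = 2.17e-05 in edgeR's test) and 4.67-fold in KO (3.28 to 6.65, adjusted p = 5.80e-06).

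Prss8, at chr7:127925716-127930104 on the minus strand, encodes the protease that matriptase activates. WT epidermis had 84.8, 80.4 and 65.7 CPM and KO epidermis had 62.1, 139.6, 70.2 and 82.0 CPM. KO 2, the 1 epidermis library of the A34x range, held the highest level of Prss8 as it did of St14. WT tongue had 13.4, 17.5, 13.0 and 15.2 CPM and KO tongue had 21.2, 15.2, 19.6 and 16.5 CPM. The lowest epidermis library was thus above the highest tongue library, and the tissue difference was 5.28-fold in WT (4.10 to 6.81, adjusted p = 2.01e-06 in edgeR's test) and 4.93-fold in KO (3.42 to 7.12, adjusted p = 5.99e-06). The exons of Prss8 share 6.59% of their bases with Kat8 on the other strand, and reads there cannot be told apart in libraries that do not mark strand.

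Tmprss4 and Tmprss13 are type II transmembrane serine proteases, and loss of Tmprss13 in mice is known to impair the skin barrier. Both lie on chromosome 9, Tmprss4 at 45172726 to 45204092 on the minus strand and Tmprss13 at 45319100 to 45347581 on the plus strand. Tmprss4 had 43.4, 154.9 and 119.4 CPM in WT epidermis and 52.97, 158.1, 174.0 and 183.0 CPM in KO epidermis. The low library of each genotype was the A32x one, and these 2 stood well below the other 5. Tongue levels of Tmprss4 were close together, at 10.2, 10.4, 12.4 and 12.5 CPM in WT and 8.37, 12.2, 14.04 and 13.7 CPM in KO. It had the largest fold change among the members that were higher in epidermis, at 9.39-fold in WT (5.36 to 16.5, adjusted p = 4.70e-05 in edgeR's test) and 12.0-fold in KO (6.83 to 21.1, adjusted p = 8.44e-06). An antisense gene, Gm17099, shares 15.9% of the exon bases of Tmprss4.

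Tmprss13 was more even, at 169.5, 144.2 and 124.2 CPM in WT epidermis and 115.3, 212.6, 163.2 and 190.2 CPM in KO epidermis. Its tongue levels were 25.3, 25.6, 20.8 and 29.0 CPM in WT and 24.7, 26.2, 32.8 and 28.5 CPM in KO. The tissues did not overlap, with a difference of 5.89-fold in WT (4.52 to 7.69, adjusted p = 1.77e-06 in edgeR's test) and 6.18-fold in KO (4.58 to 8.33, adjusted p = 3.73e-07).

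Prss22, at chr17:23993534-23998100 on the minus strand, encodes a tryptase-like protease that can activate the precursor of urokinase. It was scarce. Epidermis had 2.14, 2.51 and 2.36 CPM in WT and 3.51, 4.56, 0.916 and 1.74 CPM in KO, from 17 to 67 reads a library. Tongue had 0.479, 0.243, 0.149 and 1.05 CPM in WT and 0.230, 0.299, 0.299 and 0.184 CPM in KO, from 2 to 13 reads. Within each genotype the tissues did not overlap. Prss22 did not pass the filter in tongue alone and was tested between tissues through its epidermis reads, which largely set its direction. The difference was 4.92-fold in WT (2.17 to 11.1, adjusted p = 0.00384 in edgeR's test) and 10.5-fold in KO (4.56 to 24.1, adjusted p = 1.96e-04). The WT log2 fold change of Prss22 was 2.30, and it was 3.03 without tongue WT 4, the tongue library with the most reads of the gene.

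The inhibitors followed the tissue pattern of matriptase and prostasin. Spint1 lies at chr2:119237362-119249527 on the plus strand and Spint2 at chr7:29256323-29281912 on the minus strand. Spint1 had 40.6, 67.8 and 66.0 CPM in WT epidermis, and 59.8, 82.3, 84.1 and 86.1 CPM in KO epidermis. As with Tmprss4, the A32x library was the lowest of each genotype. Tongue had 26.4, 19.2, 17.1 and 19.6 CPM of Spint1 in WT and 29.9, 21.5, 28.5 and 24.7 CPM in KO. The tissue difference of Spint1 was 2.87-fold in WT (2.06 to 4.01, adjusted p = 2.07e-04 in edgeR's test) and 3.04-fold in KO (2.35 to 3.95, adjusted p = 6.76e-06).

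Spint2 had 40.8, 53.6 and 41.2 CPM in WT epidermis and 54.0, 53.3, 58.9 and 71.1 CPM in KO epidermis. Its tongue levels were 13.7, 11.7, 9.86 and 10.3 CPM in WT and 13.4, 10.6, 17.4 and 11.0 CPM in KO. No tongue library reached an epidermis library. The difference of Spint2 was 4.03-fold in WT (3.09 to 5.25, adjusted p = 7.99e-06 in edgeR's test) and 4.63-fold in KO (3.43 to 6.26, adjusted p = 1.62e-06).

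The upstream sequences of both inhibitors are shown because these genes moved together between tissues, with that of Corin as the member that moved the other way. Each is the run of 250 bases before the start site in RefSeq on GRCm38.p6, 5′ to 3′ on the gene's own strand, in lower case with GC boxes (GGGCGG on either strand) in capitals. Spint1 covers chr2:119237110-119237359 on the plus strand, Spint2 chr7:29281978-29282227 and Corin chr5:72504541-72504790, both on the minus strand.
Spint1: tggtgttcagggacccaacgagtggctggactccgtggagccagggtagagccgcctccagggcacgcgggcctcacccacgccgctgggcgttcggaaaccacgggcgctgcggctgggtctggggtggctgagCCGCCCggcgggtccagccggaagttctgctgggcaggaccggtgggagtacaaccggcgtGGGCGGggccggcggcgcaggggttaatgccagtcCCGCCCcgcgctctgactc
Spint2: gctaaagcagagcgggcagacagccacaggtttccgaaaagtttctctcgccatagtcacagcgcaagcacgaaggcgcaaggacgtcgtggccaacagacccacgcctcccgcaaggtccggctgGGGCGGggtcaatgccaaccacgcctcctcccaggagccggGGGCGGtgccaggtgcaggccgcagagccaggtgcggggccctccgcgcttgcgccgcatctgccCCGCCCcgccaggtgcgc
Corin: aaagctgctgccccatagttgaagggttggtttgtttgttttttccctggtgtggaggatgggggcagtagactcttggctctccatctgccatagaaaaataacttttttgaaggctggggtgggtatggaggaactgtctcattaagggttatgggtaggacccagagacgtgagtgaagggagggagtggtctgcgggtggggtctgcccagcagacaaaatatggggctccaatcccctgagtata

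Both inhibitor sequences held 3 GC boxes, and that of Corin held 0. Their GC content was 72.8% for Spint1 and 69.6% for Spint2, against 51.2% for Corin and a median of 52.4% over all promoters of the table. A GC box was present in 32.7% of the 32851 promoter windows, of which only the 250 bases before each start were searched. The search covered 12 motifs on both strands, chosen after the values were known. They were the GC box GGGCGG, the CACCC box CCACCC, the ETS site CCGGAAG, the Grainyhead-like core CCGGTT with its longer form AACCGGTT, and the AP-1 site TGANTCA. The others were the TATA box TATAAA, the E-box CACGTG, the GATA site TGATAA, the nuclear receptor motif AGGTCA, and the p53-family core CATG with its longer form ACATG. Each core lies within its longer form. The Spint1 window also held 1 match each to CCACCC (in 28.1% of all windows), CCGGAAG (6.91%) and CCGGTT (5.62%), and the Corin window held 2 matches to CCACCC. No other of the 12 motifs was found in the windows of Spint1, Spint2 and Corin. The table held 5 of the 10 members, and St14, Prss8, Prss22, Tmprss4 and Tmprss13 were not among them. The other entries were Hpn and Tmprss2. Tmprss2 had 0 GC boxes, and the windows of Hpn had 0 and 2. Whether GC boxes go with the tissue pattern was not tested.

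Corin, at chr5:72300025-72504473 on the minus strand, encodes a transmembrane protease best known for processing the precursor of atrial natriuretic peptide in heart muscle, and it is also made by the dermal papilla of hair follicles. It was at 8.62, 10.8, 9.64 and 10.02 CPM in WT tongue and 9.76, 10.4, 15.4 and 11.4 CPM in KO tongue. Epidermis had 4.05, 0.103 and 0.359 CPM in WT and 1.15, 0.747, 0.162 and 0.224 CPM in KO, from 2 to 36 reads. The highest epidermis library, WT 1, was below the lowest tongue library. Corin was 7.44-fold lower in epidermis in WT (log2 fold change -2.89, SE 0.90, adjusted p = 0.0198 in edgeR's test) and 20.1-fold lower in KO (log2 fold change -4.33, SE 0.46, adjusted p = 6.99e-06). The WT call of Corin was lost without epidermis WT 3, at a log2 fold change of -2.39 and adjusted p = 0.0541 in edgeR's test. Without epidermis WT 1 the log2 fold change was -5.34, and without epidermis WT 2 it was -2.27. In KO it was -5.03 without epidermis KO 1.

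Fibroblast genes (Col1a1, Col1a2, Col3a1, Dcn, Lum and Pdgfra), of which 6 of 6 were lower in epidermis in both genotypes, summed to 132 to 430 CPM in epidermis and 4887 to 6178 CPM in tongue, and the muscle genes moved the same way with Corin between tissues. Of the dermal papilla genes (Sox2, Sox18, Crabp1, Rspo3, Lef1 and Alpl), 5 of 6 were also lower in epidermis in both genotypes. Those 5 were each at or below 1.16 CPM in every epidermis library and at 1.05 to 8.16 CPM in tongue, and Rspo3 and Alpl were each at 0 in 1 of the WT epidermis libraries. Lef1, which other skin cells also express, went the other way, at 30.5 to 51.3 CPM in epidermis and 4.15 to 7.47 CPM in tongue, and it made up most of the list's sum in epidermis, 31.3 to 52.2 CPM against 20.8 to 27.97 CPM in tongue. The part of these cells in the difference of Corin was not tested.

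Tmprss2, at chr16:97564682-97611195 on the minus strand, encodes a type II transmembrane protease of many glandular and lining epithelia. WT tongue had 3.35, 1.37, 0.672 and 0.727 CPM and KO tongue had 5.61, 0.970, 4.88 and 1.84 CPM. Epidermis had 1.24, 0.359 and 0.616 CPM in WT and 1.10, 0.498, 0.539 and 0.280 CPM in KO, from 5 to 21 reads. The tissues overlapped in both genotypes. In WT the difference of Tmprss2 did not pass (log2 fold change -1.10, 95% interval -2.61 to 0.41, adjusted p = 0.176 in edgeR's test). In KO it was 5.23-fold lower in epidermis (log2 fold change -2.39, SE 0.59, adjusted p = 0.00385). The WT and KO values were not shown to differ, as the test of the difference below gives.

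The tongue libraries that were high in Tmprss2 were also high in the list of taste bud and minor gland genes (Krt8, Krt18, Krt19, Bpifa1, Muc5b, Muc19, Lpo and Aqp5). That sum was 71.7 CPM in KO 1, 47.9 in WT 1 and 28.4 in KO 3, and 10.4 to 17.7 in the other tongue libraries, where Tmprss2 was at or below 1.84 CPM. Lpo was at 0 in all 8 tongue libraries, and Bpifa1 was at 0 in 2 of the WT and 3 of the KO ones. In tongue 5 of the 8 genes were tested between genotypes, and all 5 had values above 0 with none called. The part of these cells in the levels of Tmprss2 was not tested.

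Hpn encodes hepsin, a transmembrane protease abundant in liver, and lies at chr7:31098725-31115290 on the minus strand. It was scarce in both tissues, at 2 to 18 reads a library. WT epidermis had 0.675, 0.616 and 0.462 CPM and KO epidermis 0.524, 0.830, 0.970 and 0.953 CPM. WT tongue had 0.670, 0.162, 0.374 and 0.485 CPM and KO tongue 0.768, 0.672, 0.996 and 0.615 CPM. All 4 groups overlapped, and in KO the tissue difference was 0.15 on the log2 scale (95% interval -0.61 to 0.91, adjusted p = 0.726 in edgeR's test).

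Within the A38x range, which has 2 libraries of each group, the same calls were made in both tissue comparisons. In WT the log2 fold changes there were 2.504 for St14, 2.36 for Prss8, 2.03 for Prss22, 3.45 for Tmprss4, 2.42 for Tmprss13, 1.85 for Spint1, 2.22 for Spint2 and -5.38 for Corin. In KO they were 1.76 for St14, 2.05 for Prss8, 2.46 for Prss22, 3.66 for Tmprss4, 2.499 for Tmprss13, 1.65 for Spint1, 2.17 for Spint2, -6.09 for Corin and -2.99 for Tmprss2. The other ranges hold at most 1 library of a group.

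Since the epidermis is nearly all epithelium and the tongue is not, the tissue difference was also computed with each library scaled to its reads from the 6 epithelial adhesion genes. A value above 0 then means more RNA per unit of those adhesion genes. The 6 adhesion genes themselves had a median log2 fold change of 2.02 in WT and 2.06 in KO on the TMM scale, and all 6 were called higher in epidermis. On the epithelial scale the median of all genes moved from 0.03 to -1.71 in WT and from 0.07 to -1.96 in KO. Of the calls over all genes, 5.77% were then higher in epidermis in WT and 4.4% in KO, against 50.4% and 51.2% on the TMM scale.

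On that scale most of the epidermal excess was no longer called. Tmprss4 stayed higher in epidermis in both genotypes, at 1.27 on the log2 scale in WT (SE 0.33, adjusted p = 0.00311 in edgeR's test) and 1.45 in KO (SE 0.31, adjusted p = 3.65e-05). Tmprss13 stayed higher in WT at 0.92 (adjusted p = 0.0397) and did not pass in KO at 0.57 (adjusted p = 0.0512). Prss22 did not pass in WT at 0.57 (adjusted p = 0.442) and was higher in KO at 1.503 (adjusted p = 0.0199). St14, at 0.35 in WT and 0.29 in KO, and Prss8, at 0.73 and 0.31, did not pass, with adjusted p from 0.102 to 0.392 in edgeR's test.

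The inhibitors had the smallest values of these 7 genes on the epithelial scale. Spint2 was at 0.29 in WT and 0.20 in KO (adjusted p = 0.454 and 0.541 in edgeR's test). Spint1 turned below 0, at -0.27 in WT and -0.43 in KO (adjusted p = 0.424 and 0.157), so that its tissue direction depended on the scale and it was called on the TMM scale only. The genes low in epidermis went lower still: Corin was at -4.14 in WT and -6.24 in KO, and Tmprss2 was at -2.55 in WT and -4.20 in KO, all called. Hpn turned from 0.15 to -1.90 in KO and was then called lower (adjusted p = 6.38e-04). In all 4 members were called in WT on this scale, 2 of them higher, and 5 in KO, again 2 of them higher.

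**Figure D2:**
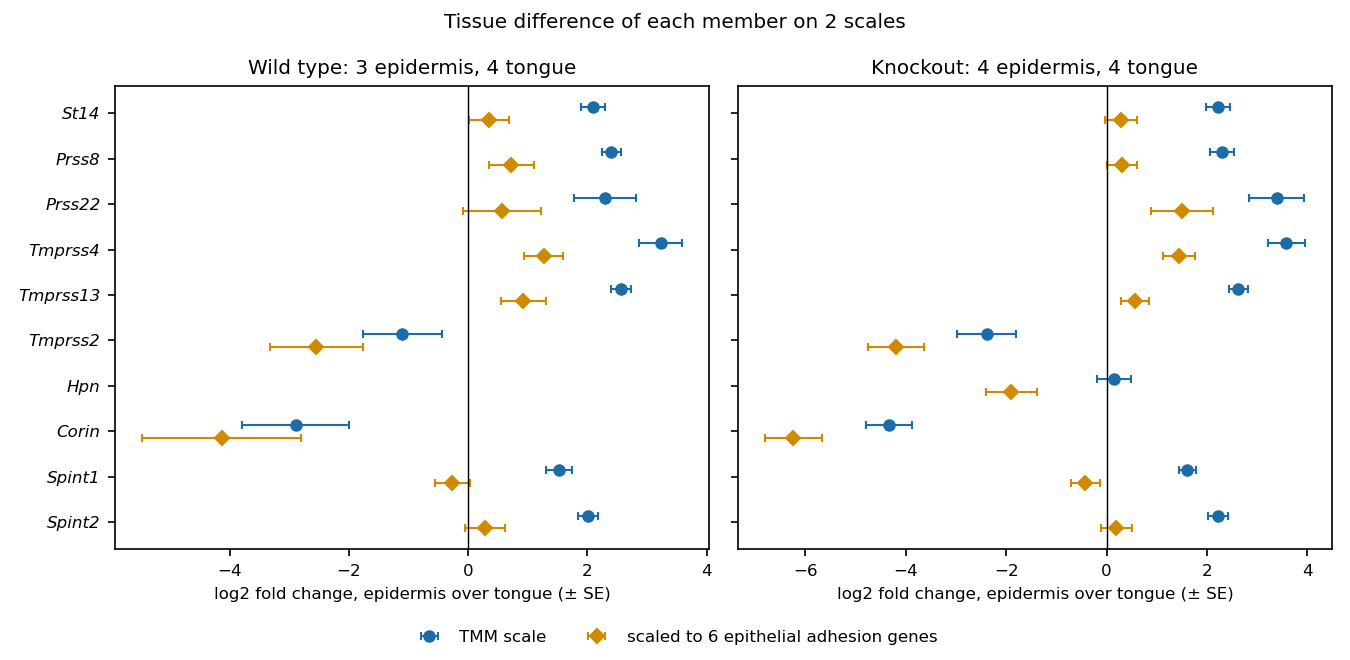
Log2 fold change of each gene between epidermis and tongue (above 0 is higher in epidermis) with its SE, for wild type at left and knockout at right. Circles are on the TMM scale and diamonds are scaled to the 6 adhesion genes, where Tmprss4 lies at 1.27 and 1.45 and Spint1 at -0.27 and -0.43. Hpn has no wild-type value, as it did not pass the filter.

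To set genes beside each other, levels were divided by the length of the longest principal coding transcript. Per kilobase, WT epidermis held most of Tmprss4 (46.4 ± 24.9 CPM per kb, SD, n = 3), Tmprss13 (45.0 ± 6.997), Prss8 (41.6 ± 5.41) and Spint2 (32.7 ± 5.23), and neighbours in this order overlapped. Spint1 followed at 25.0 ± 6.55 and St14 at 15.1 ± 2.16 CPM per kb, each apart from the next. Prss22 was at 1.77 CPM per kb, and Hpn, Corin and Tmprss2 were between 0.233 and 0.332 and overlapped. The KO epidermis gave the same order for the first 8, with Tmprss4 at 62.2 ± 26.4 CPM per kb (SD, n = 4), Spint2 at 42.9 ± 5.93 and Spint1 at 33.6 ± 5.29. The place of Spint2 rests on the length taken. With the length of all annotated exons, an alternative added after seeing the data, Spint2 fell below Spint1 in epidermis. It was then at 9.922 CPM per kb in WT and 13.02 in KO.

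Tongue had another order. With the length of the principal transcript, the inhibitors led in WT tongue. Spint1 was at 8.86 ± 1.74 and Spint2 at 8.24 ± 1.24 CPM per kb (SD, n = 4). Both overlapped Prss8 at 7.98 ± 1.12 and Tmprss13 at 7.76 ± 1.03. Tmprss4, first in epidermis, was the fifth in tongue at 4.99 ± 0.538, above St14 at 3.60 ± 0.893 and Corin at 2.01 ± 0.189 without overlap. Of the summed level per kb of the 8 proteases in WT tongue, Prss8 made up 29.1%, Tmprss13 28.2%, Tmprss4 18.4%, St14 13.1% and Corin 7.36%. In WT epidermis Tmprss13 made up 30.4%, Tmprss4 29.8%, Prss8 27.96%, St14 10.02% and Corin 0.230%. The tongue order changed with the length of all annotated exons. Spint2 was then at 2.504 CPM per kb in WT tongue, below Prss8, Tmprss13, Spint1 and Tmprss4. The shares rest on the length taken too.

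The ratio of Spint1, the inhibitor, to St14, the protease, was 1.64 ± 0.262 in WT epidermis (SD, n = 3) and 1.94 ± 0.692 in KO epidermis (n = 4). It was 2.53 ± 0.471 in WT tongue and 2.84 ± 0.359 in KO tongue (n = 4 each), all per kb. The WT tissues overlapped by 1 tongue library at 1.86 beside an epidermis maximum of 1.87. The 2 inhibitors together stood to St14 and Prss8 together at 1.02 ± 0.193 in WT epidermis and 1.49 ± 0.266 in WT tongue, without overlap, and at 1.24 ± 0.365 and 1.499 ± 0.0716 in KO, with overlap. These ratios were not tested, and their size rests on the transcript length taken. With the length of all annotated exons, which was added as an alternative after seeing the data, the WT ratio of both inhibitors to both proteases was 0.653 in epidermis and 1.06 in tongue, and that of Spint1 to St14 was 3.23 and 4.97.

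**Figure D3:**
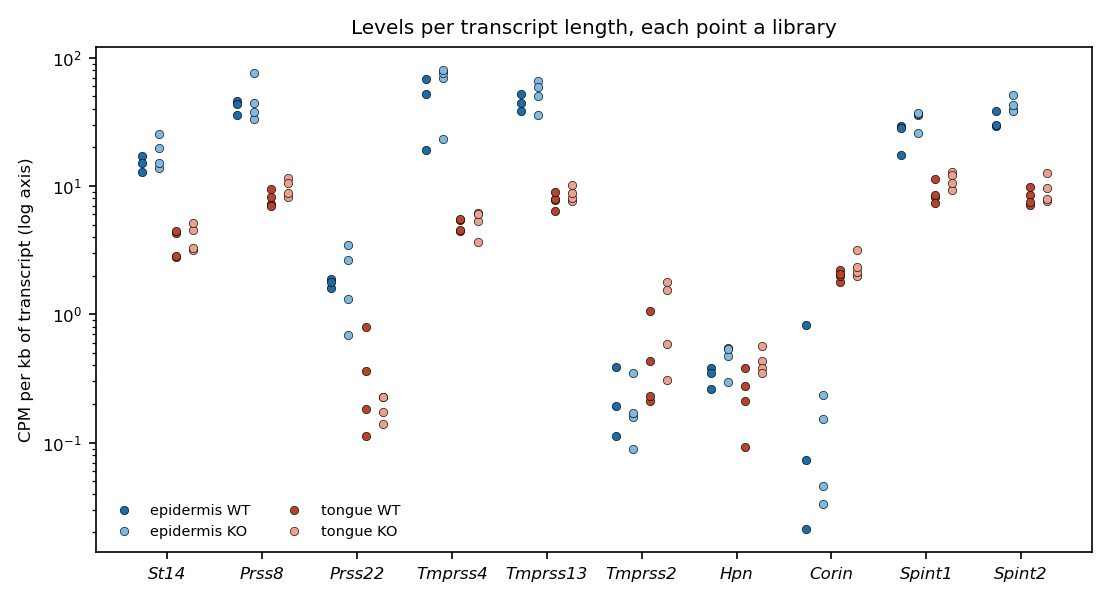
Levels per kilobase of transcript (log axis) for each gene, with 1 point per library and 4 columns per gene for the groups. Prss8, Tmprss4 and Tmprss13 reach 33.5 CPM per kb or more in most epidermis libraries, with 19.0 and 23.2 for Tmprss4 in the A32x ones, while St14 stays between 12.9 and 25.6.

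The second question was whether loss of the Tmprss11 cluster changed the other membrane proteases and their inhibitors. In epidermis none of the 10 members passed the test. Nor did any other gene, the targeted genes included. Of the 16073 genes tested, edgeR called 0% at an adjusted p under 0.05, with 187 at an unadjusted p under 0.05. DESeq2 called 1 gene and limma-voom 0. Only 19% of simulated 2-fold changes were recovered in this comparison, so a missing call does not show that a gene was unchanged. The members lay mostly above 0, 8 of 10, with a median log2 fold change of 0.23 where all genes had 0.0013. No member was at an unadjusted p under 0.05, against 1.16% of all genes. In no member did KO and WT libraries separate, against 2.2% of all genes. The 1.16% comes from a fit that takes no account of the A-number range. With a block for the range, 1563 genes were at an unadjusted p under 0.05 in edgeR's test and 1 was called.

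The values for the core of the system in KO epidermis were small beside their intervals. St14 was at 0.27 on the log2 scale (95% interval -0.25 to 0.79) and Prss8 at 0.17 (-0.44 to 0.78), so an increase of St14 by more than 1.73-fold, or of Prss8 by more than 1.72-fold, lay outside its interval. Tmprss13 was at 0.20 (-0.33 to 0.72). Tmprss4 was at 0.40 with a wide interval (-0.75 to 1.55) and at 0.03 without epidermis WT 1. Spint1 was at 0.40 (-0.12 to 0.91) and Spint2 at 0.37 (-0.06 to 0.80), the narrowest interval of the 10. Adjusted p was 0.9998 for every member in edgeR's test.

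The scarce genes could show little. Prss22 was at 0.15 (-0.98 to 1.28), Hpn at 0.48 (-0.45 to 1.40) and Tmprss2 at -0.21 (-1.54 to 1.12). Corin was at -1.29 (-3.88 to 1.30) and turned to 1.24 without epidermis WT 1, the library with 36 of its reads. The adhesion genes lay on the same side as most members, 6 of 6 above 0 with a median of 0.31 and none called, and mitochondrial ribosomal RNA was highest in WT 1. Their part in the members' values was not tested.

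The A32x libraries of epidermis, WT 1 and KO 1, stood apart for many genes whatever the genotype, and not for members alone. Tmprss4 and Spint1 were lower in both than in any other epidermis library, as were 16.2% of all genes. Tmprss2 and Corin were higher in both, as were 15.2% of all genes. The other 6 members overlapped. Among A38x libraries only, 2 against 2, none of the 9 members tested was called either, while 604 of all genes were. There Spint1 was at 0.34, Spint2 at 0.45, Tmprss4 at 0.37, Tmprss13 at 0.39 and Prss8 at 0.05, and St14 turned to -0.17 and Prss22 to -0.89.

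In tongue 8 of the 10 members were tested, as Prss22 and Hpn did not pass the filter, and none was called. Of the 15741 genes tested 0.0127% passed. All 8 had log2 fold changes above 0, with a median of 0.23 where all genes had 0.0087, and the KO and WT libraries overlapped for each of them while 2.29% of all genes did not overlap. Spint1 had the smallest unadjusted p, at 0.34 (95% interval -0.0041 to 0.69, unadjusted p = 0.0523, adjusted p = 0.939 in edgeR's test). Prss8 was at 0.29 (-0.03 to 0.62), Corin at 0.26 (-0.10 to 0.62), Spint2 at 0.20 (-0.21 to 0.60), St14 at 0.16 (-0.30 to 0.63), Tmprss13 at 0.15 (-0.14 to 0.45) and Tmprss4 at 0.08 (-0.29 to 0.45). Tmprss2 had the largest value and the widest interval, 1.13 (-0.28 to 2.54). Tmprss2 was at 0.73 without KO 1 and at 1.83 without WT 1, the libraries with the highest sums of taste and gland genes.

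Here too the adhesion genes were above 0, 6 of 6 with a median of 0.18 and none called. Without the filter on low counts Prss22 was at -0.91 and Hpn at 0.84 in tongue, neither called (adjusted p = 0.958 each in edgeR's test). Among A38x tongue libraries no member was called, with Tmprss2 at 2.19, St14 at 0.57, Spint1 at 0.53, Spint2 at 0.48 and Prss8 at 0.36.

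**Figure D4:**
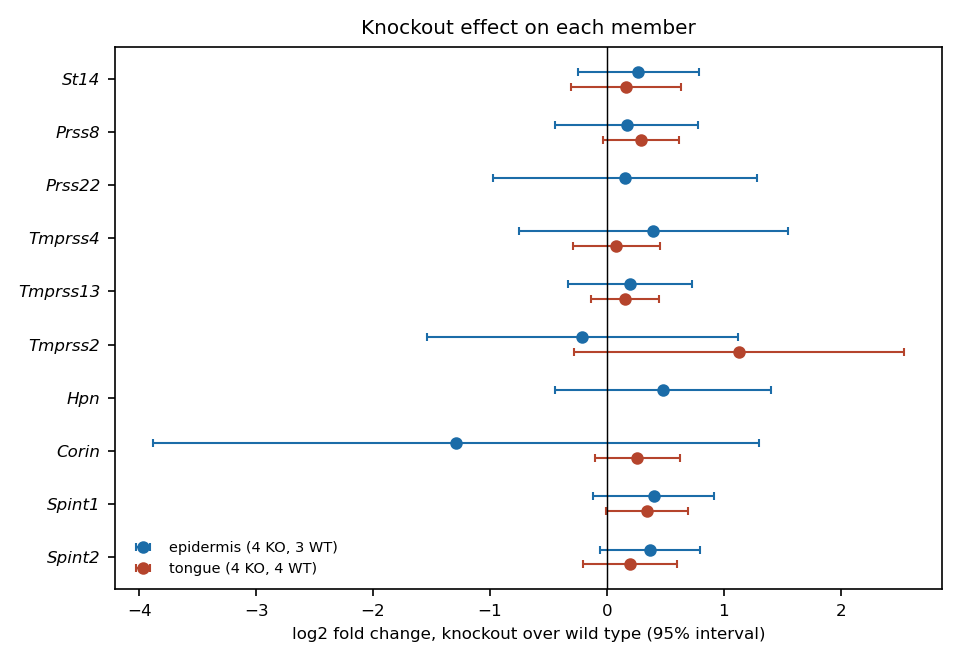
Log2 fold change of each gene between knockout and wild type (above 0 is higher in knockout) with its 95% interval, in epidermis and in tongue. Every interval spans 0, and the widest are those of Corin in epidermis and Tmprss2 in tongue. Prss22 and Hpn have no tongue value.

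Whether the knockout acted differently in the 2 tissues was tested by the difference of the effects over all 15 libraries. None of the 10 members passed, and 0% of 17935 genes did, with 299 at an unadjusted p under 0.05, 1 call by DESeq2 and 0 by limma-voom. The members' differences (epidermis effect minus tongue effect) had 6 values above 0 and 4 below. Those of the core genes were near 0, with St14 at 0.13 (95% interval -0.57 to 0.84), Prss8 at -0.09 (-0.77 to 0.59), Spint1 at 0.08 (-0.52 to 0.67) and Spint2 at 0.20 (-0.35 to 0.74). Those of Corin, at -1.43 (-3.72 to 0.87), Tmprss2, at -1.31 (-3.33 to 0.70), and Prss22, at 1.10 (-0.63 to 2.83), were large but so were their intervals. The difference of Prss22 was 0.36 without tongue WT 4. That of Tmprss2 was -2.02 without tongue WT 1 and -0.80 without epidermis WT 1, and that of Corin turned to 0.999 without epidermis WT 1.

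Targets and partners of these proteases were followed as a list of 18 genes, of which 17 were tested in each comparison. In WT 11 were higher and 2 lower in epidermis, with a median log2 fold change of 1.06 where all genes had 0.03, and where 32% of all genes were called higher and 31.6% lower. In KO 13 were higher and 2 lower, with a median of 1.84 where all genes had 0.07, and where 32.7% of all genes were called higher and 31.1% lower. Flg, the filaggrin precursor that prostasin-dependent processing acts on, was at 3041 to 5735 CPM in epidermis and 5.30 to 20.7 CPM in tongue (log2 fold changes 8.51 in WT and 8.58 in KO). Klk7, a peptidase of desquamation, was at 477 to 1028 CPM in epidermis and 29.1 to 65.4 CPM in tongue (3.87 and 4.42). Igfbp7, which matriptase can cleave, went the other way, at 1.01 to 5.56 CPM in epidermis and 45.7 to 75.5 CPM in tongue (-4.32 and -4.12). Between genotypes 0 of 17 were called in epidermis and 0 of 17 in tongue. In epidermis Flg was then at 0.19 and Klk7 at 0.24, and 15 of the 17 lay above 0 with a median of 0.26.

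Other genes with Kunitz domains did not follow Spint1 and Spint2 as a list. Of 6 tested, 1 was higher and 3 were lower in epidermis in each genotype, to be read against the same shares of all genes. Tfpi, the inhibitor of the tissue factor pathway, had 1.51 to 2.87 CPM in epidermis and 22.2 to 40.6 CPM in tongue (log2 fold changes -3.86 in WT and -3.79 in KO). Tfpi2 was called lower too, at 0 to 0.166 CPM in epidermis and 1.99 to 4.86 CPM in tongue, as was Wfikkn2 (-3.81 and -2.95). With so few epidermis reads, Tfpi2 was tested through its tongue reads, and its direction was largely set by the filter. App and Aplp2, the most abundant of the list, did not pass in either tissue comparison, and between genotypes App was at 0.26 in epidermis and 0.04 in tongue, Aplp2 at 0.19 and 0.10, with 0 of 4 called in epidermis and 0 of 5 in tongue. Of 9 other membrane-anchored proteases 5 were in the table, and Tmprss7 was the one tested in the KO tissue comparison. It was higher in epidermis there (2.93, at 0.997 to 1.78 CPM against 0.0746 to 0.246 CPM). As Tmprss7 did not pass the filter in tongue, it was tested through its epidermis reads, and its direction was largely set by the filter. None of the 5 was tested in the WT tissue comparison. Between genotypes 1 was tested in each tissue and not called, Tmprss7 in epidermis at 0.44 and Tmprss5 in tongue at -0.07.

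Across all 15 libraries, the genes most like St14 in log2(CPM + 1) were Hr (Pearson r = 0.994), Rarg (0.992) and Zfp384 (0.991), and those most like Prss8 were Ssh3 (0.990), Lrrc28 (0.989) and Fam110a (0.989), out of 8694 genes at a mean of 10 CPM or more. These values describe mostly the tissue difference, which all 15 libraries share. Levels of St14 and Prss8 had r = 0.972. With each group's mean removed, the 45 pairs of members ranged from -0.752 for Tmprss4 with Corin to 0.698 for Prss8 with Tmprss13, and Spint1 with Spint2 had 0.644. The value for Tmprss4 with Corin was -0.52 without epidermis WT 1. The points share library, depth and scaling, and the values are descriptive.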

How the data were processed

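RNA was measured by sequencing in 15 libraries. Per the labels' protocols, cDNA was made with the SMARTer V4 low-input kit, TruSeq v2 libraries were built from it, and both fragment ends were read on a NextSeq500; none of this is stated to mark strand. The submitters' processing notes list STAR 2.5.2a and the builds GRCm38.p3 and mm10, together with DESeq2, edgeR and limma. The sources used here do not give the read counter. The authors deposited whole-read counts per Ensembl gene, which were tested, and a table of signal values in which each count is divided by a constant of its library (within 0.01 or 0.1% in 100% of values). The table held 23422 entries, and the 2 transgene entries (at most 0.00439% of reads) entered neither the library sizes nor the tests.

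Within each comparison, genes were kept by filterByExpr (minimum count 10), scaled by TMM and compared by the robust two-sided quasi-likelihood test of edgeR 4.0.16 in R 4.3.3, with Benjamini-Hochberg adjustment over all genes tested, a threshold of 0.05 and 95% intervals. The fits were tested on simulated data. The changed genes were drawn only from those above a low floor on mean CPM, and the simulated libraries held no A-number ranges. The recoveries therefore do not cover the scarcest members, such as Hpn. Of simulated 2-fold changes, 19% were recovered between genotypes in epidermis, 78% in tongue and 14% for the difference of effects. At 4-fold the shares were 64.6%, 94.8% and 65%. False calls made up 6.74%, 7.61% and 9.2% of the calls there. Levels use TMM over all 15 libraries. Alternatives were DESeq2 1.42.0, limma-voom (3.58.1), RLE factors, no filter, blocks, A38x libraries alone, libraries left out and epithelial scaling. The members, lists, tests and alternatives were chosen with earlier results of these data known. All members are named. From each list the text names up to 3 genes past the threshold, by size of fold change, else the 2 of highest mean CPM, and of the genes most like St14 and Prss8 the first 3; not every such gene is printed. Gene models came from GENCODE M21 and promoters from RefSeq.

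The main tests used no pairing, and equal replicate numbers entered only through the replicate block among the alternatives. Same-numbered epidermis libraries of the genotypes had deviations from the group means that correlated at 0.591, 0.106 and 0.493. At number 2 the ranges differ, as WT 2 is A38x and KO 2 is A34x. Epidermis WT 2 correlated at 0.397 with KO 3 and at 0.316 with KO 4. In the KO tissues equal numbers carry the same A-number. In tongue the genotypes were not taken as paired, though the block was run there too. In WT 2 animals gave both tissues. The labels do not say outright that the samples of a group are separate animals, so p-values measure the spread among samples, which may be technical. Targeted genes numbered 7, and the one not analysed here is not reported.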

Additional observations from a re-analysis of the deposited data

Results flagged for a closer look

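In the KO epidermis, Spint1 stood at 59.8 CPM in KO 1 while the other libraries of the group lay between 82.3 and 86.1 CPM. The gap below the next library was 0.856 of the group's range, above Dixon's 95% critical value for 4 libraries. Groups of 4 libraries were examined for each member, 30 in all, and chance alone picks out about 1 group in 20. KO 1 is the A32x library of its group, and WT 1, the A32x library of the WT epidermis, was also the lowest of its group for Spint1, at 40.6 CPM.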

How the results depend on the processing

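Across 872 alternative values of 47 tested member results, 826 kept their direction and their side of the threshold, and 36 changed direction. A further 9 lost and 1 gained the call while keeping their direction, and 9 of those 10 came from epithelial scaling. Of those that changed direction, Spint1 also lost its call in both genotypes and Hpn gained one in KO, all on epithelial scaling. On that scaling 4 members were called in WT (2 higher, 2 lower) and 5 in KO (2 higher), Spint1 turned to -0.27 in WT and -0.43 in KO, and Hpn turned to -1.90 in KO. The count of members lower in WT epidermis was 0 without epidermis WT 3 and 1 without any other single library. No member was called between genotypes, or for the difference of effects, in any alternative. The replicate block and the animal block changed no call of a member, and with the replicate block Tmprss13 turned to -0.0044 for the difference of effects. In tongue, where same-numbered libraries correlated at -0.135 to 0.573, the replicate block left 2 genes called between genotypes. In epidermis the genes of the whole table called between genotypes numbered 1 with DESeq2, 1 with an A-number range block, 604 among A38x libraries and 1 in a fit of all 15 libraries. The numbers in tongue, 2 as reported, were 4 with DESeq2 and 15 among A38x libraries. For the difference of effects they were 1 with DESeq2 and 19 among A38x libraries, and 0 to 1 with single libraries left out. Log2 fold changes in epidermis that turned were Prss22 at -0.13 with limma-voom, Prss8 at -0.12 and Prss22 at -0.37 with the range block, and St14 at -0.17 and Prss22 at -0.89 among A38x libraries. With single libraries left out, Prss8 ran from -0.12 to 0.28, Prss22 from -0.20 to 0.44, Tmprss2 from -0.61 to 0.30 and Corin from -1.96 to 1.24. For the difference of effects, St14 turned to -0.0095 with the range block, and among A38x libraries St14 turned to -0.75, Spint1 to -0.21 and Spint2 to -0.045. With the animal block St14 turned to -0.33, Tmprss4 to -0.0014, Corin to 0.96, Spint1 to -0.29 and Spint2 to -0.020. With single libraries left out, the difference ran from -0.060 to 0.27 for St14, from -0.40 to 0.042 for Prss8, from -0.028 to 0.73 for Tmprss4, from -0.056 to 0.21 for Tmprss13, from -2.09 to 0.999 for Corin, from -0.12 to 0.21 for Spint1, from 0.36 to 1.41 for Prss22 and from -2.02 to -0.80 for Tmprss2. The cause of these changes was not tested. Corin in epidermis did not pass the filter among A38x libraries or without KO 1 or KO 2, and has no value between genotypes there. Depth limits Prss22, Hpn, Tmprss2 and Corin, which had as few as 2 to 5 reads in some libraries.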

Other observations

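Among 17 tested targets and partners of these proteases, 3 genes had KO and WT epidermis libraries that did not overlap, as did 2.2% of the 16073 genes tested. None was called, and they were chosen after their values were seen. The sodium channel subunits Scnn1b, at 15.3 to 23.3 CPM in WT and 26.6 to 46.1 CPM in KO (log2 fold change 0.78, SE 0.24), and Scnn1g, at 6.08 to 9.95 CPM in WT and 12.4 to 27.7 CPM in KO (1.22, SE 0.35), were higher in each KO library. Hgf, the growth factor precursor, was at 3.15 to 5.18 CPM in WT and 0.682 to 2.24 CPM in KO (-1.54, SE 0.42). Adjusted p was 0.9998 for each in edgeR's test.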
